A study of Mus musculus with 12 samples.

Results

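H19, Igf2 and Dlk1 are imprinted genes that are high in fetal liver and low in adult liver. They were examined here with 7 other imprinted genes of growth control, Meg3, Rian, Mirg, Peg3, Plagl1, Cdkn1c and Grb10. These 10 genes are 10 of the 27179 genes in the count table, and each was found by matching the Entrez identifier of its row to a mouse symbol. H19 and Dlk1 were selected on their values in these same libraries, because both were far higher on chow diet after injection of c-MET and β-catenin and differed from each other on low-protein diet. Their values in those contrasts are therefore given as a description with no test, and tests are given for 7 other genes. All 10 genes passed the filter on low counts, which asks for 3 livers at 0.451 CPM or more of the unscaled totals (the CPM below are TMM-scaled and can lie slightly higher). H19, Dlk1 and Mirg passed it only through the oncogene groups in which they are high, with 2, 0 and 0 of the 6 vector livers at that level, so none of the 3 is tested in any comparison.

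RNA was sequenced from whole livers of 12 male mice in 4 groups of 3, which were 8 weeks old when they were put on chow (CD) or on a low-protein diet (LPD). One arm on each diet received human c-MET and ΔN90-β-catenin, an N-terminally truncated β-catenin that escapes degradation, by hydrodynamic tail vein injection with Sleeping Beauty transposase. Plasmid DNA integrates in only a fraction of hepatocytes by this route, both transgenes are driven by the EF1α promoter, and each liver is a mosaic of injected and uninjected cells. The other arm received empty vector (Vec, called WT in the sample titles), and all mice stayed on their diet until the CD c-MET/β-catenin group reached its end point, when every group was harvested. The LPD oncogene livers were thus taken at the time point of the CD oncogene livers and not at an end point of their own. The labels give hepatocyte as the cell type, but the tissue was liver with all of its cells, and the labels give no strain (the study names a mixed 129/Ola and C57BL/6 background for this model, but C57/Bl3 mice for its tumour work in general). The sample titles call the CD groups chow, whereas the count table's column names call them HPD, the study's name for a high-protein diet that it used in another experiment. The titles were followed here, and which diet these mice ate could not be settled further, so every value on CD and every difference between diets carries that doubt.

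In an imprinted gene, 1 parental allele is silenced through DNA methylation marks laid down in the egg or sperm. H19 and Igf2 share enhancers and a methylated control region on mouse chromosome 7: the maternal allele makes H19, a non-coding RNA and the host of miR-675, and the paternal allele makes the growth factor IGF2. On chromosome 12 the paternal allele makes Dlk1, a membrane protein with EGF-like repeats related to the Notch ligands, and the maternal allele makes a chain of non-coding RNAs, Meg3, Rian and Mirg, that hosts many miRNAs and small nucleolar RNAs. Peg3 and Plagl1 encode zinc finger proteins of the paternal alleles, Cdkn1c encodes the CDK inhibitor p57 and Grb10 an adaptor that dampens insulin and IGF1 receptor signalling. Most of these genes fall in the liver after birth, and H19, Igf2 and Dlk1 are known to return in some liver tumours.

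Dlk1 and Meg3 are neighbours in 1 domain. Meg3 was lower in LPD than in CD oncogene livers, Peg3 was higher, and Dlk1 overlapped between the diets. For this reason the promoters of Dlk1, Meg3 and Peg3 are shown. Each is the 300-base RefSeq window around a start site on GRCm38 (mm10), written 5′ to 3′ on the strand of the gene, with the start site after base 250. RefSeq windows were found for 8 of the 10 genes, 13 windows in all, and H19 and Cdkn1c are named only. Capitals mark motif matches on either strand: in Dlk1 the forkhead core TGTTTAC, in Meg3 the cAMP response element TGACGTCA and, further on, the TATA box TATAAA on both strands with overlap, and in Peg3 TGACGTCA.
Dlk1, chr12:109452573-109452872, plus strand: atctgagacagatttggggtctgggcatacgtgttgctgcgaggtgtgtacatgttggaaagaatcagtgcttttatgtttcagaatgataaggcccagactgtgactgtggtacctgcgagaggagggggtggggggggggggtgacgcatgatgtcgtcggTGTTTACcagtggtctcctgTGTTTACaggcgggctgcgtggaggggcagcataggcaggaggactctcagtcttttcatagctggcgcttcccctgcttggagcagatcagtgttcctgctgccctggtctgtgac
Meg3, chr12:109540746-109541045, plus strand: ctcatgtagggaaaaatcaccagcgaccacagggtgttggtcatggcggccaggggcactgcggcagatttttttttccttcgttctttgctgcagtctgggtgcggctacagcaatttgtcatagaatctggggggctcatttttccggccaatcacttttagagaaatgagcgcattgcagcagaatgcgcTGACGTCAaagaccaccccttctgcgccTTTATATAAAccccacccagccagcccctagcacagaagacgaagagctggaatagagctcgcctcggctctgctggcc
Peg3, chr7:6730370-6730669, minus strand: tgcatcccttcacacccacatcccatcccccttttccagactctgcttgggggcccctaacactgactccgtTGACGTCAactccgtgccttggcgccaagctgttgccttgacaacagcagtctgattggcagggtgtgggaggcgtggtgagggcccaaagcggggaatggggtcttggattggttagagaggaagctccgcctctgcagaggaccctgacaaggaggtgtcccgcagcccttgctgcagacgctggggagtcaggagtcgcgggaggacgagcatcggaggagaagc

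The Dlk1 window held TGTTTAC at bases −87 to −81 and −67 to −61 from the start, a motif found on either strand in 3.65% of the 32851 promoter windows. The Meg3 window held TGACGTCA at −57 to −50 and TATAAA at −25 to −20, motifs found in 1.79% and 13.6% of all windows, and Peg3 held TGACGTCA at −178 to −171. The TCF/LEF core CTTTGAT, the sequence that β-catenin partners bind, stood in 3.73% of all windows and in 0 of the 13 windows of these genes. The CTCF core GGNGGCAG stood in 12.6% of all windows and in 1 window each of Igf2, Grb10 and Rian. A match is a description of letters in 300 bases and not a binding site, and the imprinting control regions lie outside these windows.

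Rian, Mirg, Meg3, H19 and Igf2 also host miRNAs. RefSeq places 17 miRNA genes within its own spans of these genes, 10 of them in Mirg (14 in the longer GENCODE span of Mirg given below), 3 in Rian, 2 in Meg3 and 1 each in H19 and Igf2. The 32 mature sequences read from these spans carry 31 different seeds (bases 2 to 8, in capitals), and only miR-453 and miR-496a-5p, both of Mirg, share a seed. The 2 arms of the H19 and Igf2 hairpins, 1 arm each from Meg3 and Rian, and the pair with the shared seed are shown. The mature miRNAs themselves were not measured by these libraries.
miR-675-5p (H19): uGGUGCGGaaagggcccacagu
miR-675-3p (H19): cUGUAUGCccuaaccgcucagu
miR-483-5p (Igf2): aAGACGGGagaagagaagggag
miR-483-3p (Igf2): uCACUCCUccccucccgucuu
miR-770-3p (Meg3): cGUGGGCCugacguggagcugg
miR-370-3p (Rian): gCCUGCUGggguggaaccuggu
miR-453 (Mirg): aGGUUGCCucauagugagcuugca
miR-496a-5p (Mirg): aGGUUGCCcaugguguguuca

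Libraries held 19476209 to 31990267 counts each, and no pair of replicates was close enough to be 1 library counted again. The hepatocyte marker list summed to between 72752 and 128536 CPM (counts scaled to the TMM-adjusted library total) in all 12 livers, with 0 of 10 markers higher and 3 lower in CD c-MET/β-catenin livers, against 18.7% of all genes called higher and 16.7% lower there. Proliferation markers summed to 4.09 to 13.5 CPM in CD Vec, 121 to 175 in CD c-MET/β-catenin, 5.23 to 6.67 in LPD Vec and 15.9 to 49.4 in LPD c-MET/β-catenin livers. Axin2, a β-catenin target, was at 64.2 to 94.8 CPM in CD and 24.1 to 37.1 CPM in LPD oncogene livers, against 6.66 to 11.5 CPM in the Vec livers. Both were lower in LPD than in CD oncogene livers, as were H19, Igf2, Meg3 and Rian but not Dlk1 or Peg3, and their part in the results was not tested. Because a bulk library sums all cells, fewer cells of a type and less RNA per cell cannot be told apart. The column headers also carry dataset numbers that fall in 3 runs, which the labels do not explain. In the smallest are replicates 1 and 2 of CD c-MET/β-catenin, another has CD Vec 1 and 2 with LPD Vec 1, and the remaining 7 libraries form the third. Some calls were lost when a term for these runs (the header term) was added to the fit, and the main ones are given with that value.

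H19 was at or under about 1 CPM in all Vec livers and far higher in CD oncogene livers, and on LPD its oncogene livers overlapped their controls. H19 (chr7:142575529-142578143, minus strand, a non-coding gene) was at 0.968, 0.455 and 0.469 CPM in CD Vec, and at 75.0, 93.6 and 134 CPM in CD c-MET/β-catenin livers. In LPD Vec it was at 0.480, 1.06 and 0.154 CPM, and in LPD c-MET/β-catenin livers at 3.66, 3.44 and 0.787 CPM. The CD oncogene livers stood far above the other 9 livers, whereas on LPD the first and second oncogene livers lay above every LPD Vec liver and the third lay below the second LPD Vec liver. On the log2 scale the difference of the oncogene livers from Vec was 7.30 ± 0.63 (SE, n = 3 per group) on CD and 2.16 ± 0.63 on LPD, and between LPD and CD in oncogene livers it was −5.25 ± 0.54. H19 was selected on these 3 contrasts, and no test is given. In Vec livers the log2 difference of H19 between the diets was −0.12 ± 0.77, at 36 and 38 counts in all per group, and the sign turned when CD Vec replicate 1 (0.34) or LPD Vec replicate 3 (0.29) was left out.

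**Figure D1:**
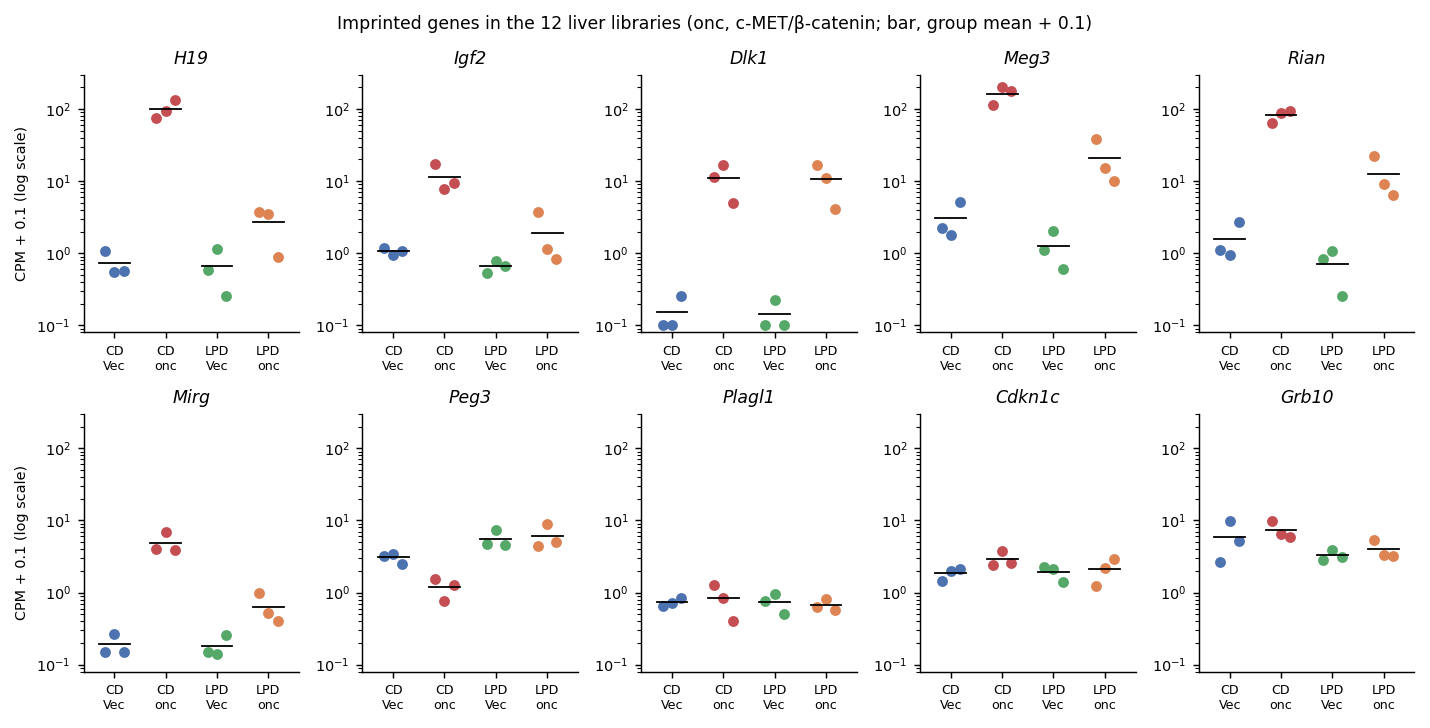
CPM + 0.1 on a log axis for each of the 10 genes, 1 point per liver in the 4 groups (onc, c-MET/β-catenin) with a bar at the group mean + 0.1. H19 stands at 75.0 to 134 CPM in CD oncogene livers and at 0.787 to 3.66 CPM in LPD oncogene livers, whereas Dlk1 spans 4.83 to 16.6 and 4.07 to 16.4 CPM in the same groups.

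Igf2, the fetal growth factor that shares enhancers with H19, was also highest in CD oncogene livers. Igf2 (chr7:142650766-142666816, minus strand) was at 1.07, 0.853 and 0.989 CPM in CD Vec, at 17.0, 7.59 and 9.17 in CD c-MET/β-catenin, at 0.432, 0.676 and 0.564 in LPD Vec and at 3.66, 1.05 and 0.743 in LPD c-MET/β-catenin livers. All 3 CD oncogene livers lay above every other liver, and the first liver of each oncogene group was its highest. Igf2 rose on CD by 3.53 ± 0.54 (log2 difference, adjusted p = 4.88e-04) and was lower in LPD than in CD oncogene livers (log2 difference −2.65 ± 0.50, adjusted p = 0.00444). On LPD the oncogene livers did not overlap their controls, but the difference of 1.67 ± 0.57 missed the threshold (adjusted p = 0.248). With a term for the header runs, the CD difference was 3.07 (adjusted p = 0.0652) and the diet difference −2.35 (adjusted p = 0.0793), so neither passed. Igf2 shares 3596 exonic bases with a gene model on its own strand, Gm49394, and reads there cannot be assigned to 1 of them.

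Dlk1 was at or near 0 in all 6 Vec livers and stood at overlapping levels in the oncogene livers of both diets. Dlk1 (chr12:109452823-109463336, plus strand) had 0, 0 and 3 counts in CD Vec and 0, 3 and 0 counts in LPD Vec, against 394, 407 and 129 counts in CD c-MET/β-catenin and 336, 308 and 93 counts in LPD c-MET/β-catenin livers. As CPM the CD oncogene livers were at 11.4, 16.6 and 4.83 and the LPD oncogene livers at 16.4, 10.8 and 4.07, so that the 2 diets overlapped over nearly their whole range, with the third liver lowest on each. The ratio of summed counts between oncogene and Vec livers, which rests on 3 control counts per diet, scaled by library size, was 204 on CD (exact 95% interval of the counts 69.5 to 990) and 219 on LPD (74.6 to 1064), where the intervals cover counting error only. All control counts came from CD Vec replicate 3 and LPD Vec replicate 2, and without them the ratio was at least 134 on CD and at least 138 on LPD (3 counts set over the group). The lowest ratio without any other Vec library was 133 on CD (without CD Vec replicate 1) and 148 on LPD (without LPD Vec replicate 1). Group means were 10.9 ± 5.90 CPM on CD and 10.4 ± 6.18 CPM on LPD (SD, n = 3), a log2 difference of −0.07 ± 0.56. Dlk1 was selected for this pattern and no test is given. The value rests on libraries of different header runs: a term for the runs moved the log2 difference on CD from 7.55 to 4.93 and that between diets to 1.11, and within the run that holds 7 libraries the 1 CD oncogene liver was at 4.83 CPM and the 3 LPD oncogene livers at a mean of 10.4 CPM.

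Meg3 and Rian, maternal non-coding RNAs next to Dlk1, rose in CD oncogene livers and were far lower in LPD than in CD oncogene livers, and the counts of Mirg, the third of them, had the same order. Meg3 (chr12:109541001-109571726) was at 2.14, 1.71 and 5.10 CPM in CD Vec and at 113, 198 and 177 CPM in CD c-MET/β-catenin livers. On LPD it was at 1.01, 1.94 and 0.513 CPM in Vec and at 38.5, 14.9 and 10.1 CPM in oncogene livers. The 4 groups fell in separate ranges except for the 2 Vec groups, which overlapped. Meg3 rose by 5.76 ± 0.63 on the log2 scale on CD (adjusted p = 8.63e-05) and by 4.15 ± 0.63 on LPD (adjusted p = 0.00923), and between LPD and CD oncogene livers the log2 difference was −2.95 ± 0.54 (adjusted p = 0.00399). Meg3 overlaps the antisense model Gm26906 over 1228 exonic bases, and the strand setting of the counting is not given in the sources used here.

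Rian (chr12:109603940-109661716), host of C/D box small nucleolar RNAs, was at 1.02, 0.853 and 2.60 CPM in CD Vec, at 64.5, 88.2 and 94.0 in CD c-MET/β-catenin, at 0.720, 0.972 and 0.154 in LPD Vec and at 22.5, 9.09 and 6.25 in LPD c-MET/β-catenin livers. Its order of livers was near that of Meg3, with CD oncogene above LPD oncogene above Vec and no overlap between these 3 levels. Rian rose by 5.77 ± 0.61 (log2, adjusted p = 6.96e-05) on CD and by 4.30 ± 0.63 (adjusted p = 0.00788) on LPD, and differed by −2.71 ± 0.50 (adjusted p = 0.00429) between the diets in oncogene livers. The LPD calls rest on few control counts: without LPD Vec replicate 1 neither Meg3 (4.05, adjusted p = 0.0640) nor Rian (4.40, adjusted p = 0.0517) passed, and Meg3 also missed without LPD Vec replicate 3 (3.82, adjusted p = 0.0556) and in a fit to the 2 LPD groups alone (4.15, adjusted p = 0.0614).

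Mirg (chr12:109729764-109749460), the miRNA host at the far end of the domain, had 1, 3 and 1 counts in CD Vec and 1, 1 and 3 in LPD Vec, against 134, 165 and 100 counts in CD and 18, 12 and 7 counts in LPD c-MET/β-catenin livers. No Vec liver reached any oncogene liver. The ratio of oncogene to Vec livers was 52.4 on CD (exact 95% interval 22.3 to 162, counting error only) and 6.59 on LPD (2.59 to 21.5). It became 90.2 on CD without CD Vec replicate 2 and 11.5 on LPD without LPD Vec replicate 3. Between LPD and CD oncogene livers the log2 difference was −3.17 ± 0.45. No test is given for Mirg, which the filter on low counts kept only through the groups in which it is high. Inside the span of Rian, the small nucleolar RNA AF357359 had 0, 1 and 2 counts in CD Vec, 42, 47 and 51 in CD oncogene, 0 in every LPD Vec and 6, 6 and 4 in LPD oncogene livers. Rtl1, the paternally expressed retrotransposon-derived gene between Meg3 and Rian, had 17 counts over all 12 libraries and was not tested.

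**Figure D2:**
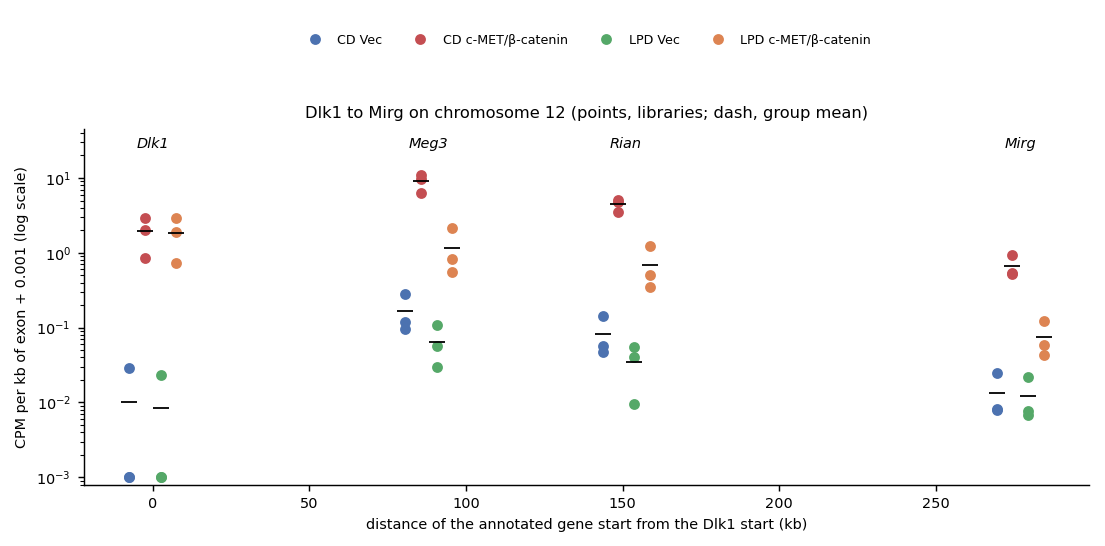
CPM per kilobase of exon + 0.001 (log axis) for Dlk1, Meg3, Rian and Mirg against the distance in kb of each annotated gene start from the Dlk1 start, with 1 point per liver, a dash at the group mean and the 4 groups set side by side at each gene. In CD oncogene livers the mean of Meg3 (8.99) stands above that of Dlk1 (1.93). In LPD oncogene livers the means of Dlk1 (1.84 ± 1.09, SD) and Meg3 (1.17 ± 0.840) overlap within their spread. Without division by exon length, Meg3 was above Dlk1 in LPD oncogene livers too (means of 21.1 and 10.4 CPM).

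Ratios of counts within a library, which do not depend on library scaling, describe the same contrast inside the chromosome 12 domain. Dlk1 to Meg3 was 0.101, 0.0837 and 0.0273 in CD oncogene livers and 0.427, 0.726 and 0.404 in LPD oncogene livers, so each LPD liver had more Dlk1 per Meg3 than any CD liver. Rian to Meg3 was 0.573, 0.444 and 0.531 on CD and 0.586, 0.611 and 0.622 on LPD, and Mirg to Meg3 was 0.0344, 0.0339 and 0.0212 on CD and 0.0229, 0.0283 and 0.0304 on LPD. For Rian to Meg3 each LPD liver again lay above every CD liver, over a narrower range than for Dlk1 to Meg3, and for Mirg to Meg3 the diets overlapped. On chromosome 7, H19 to Igf2 was 4.41, 12.3 and 14.6 in CD oncogene livers and 1, 3.27 and 1.06 in LPD oncogene livers, again with no overlap. The ratios with H19 or Dlk1 contain a gene that was chosen for its difference between diets, and no test is given for any of the ratios.

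**Figure D3:**
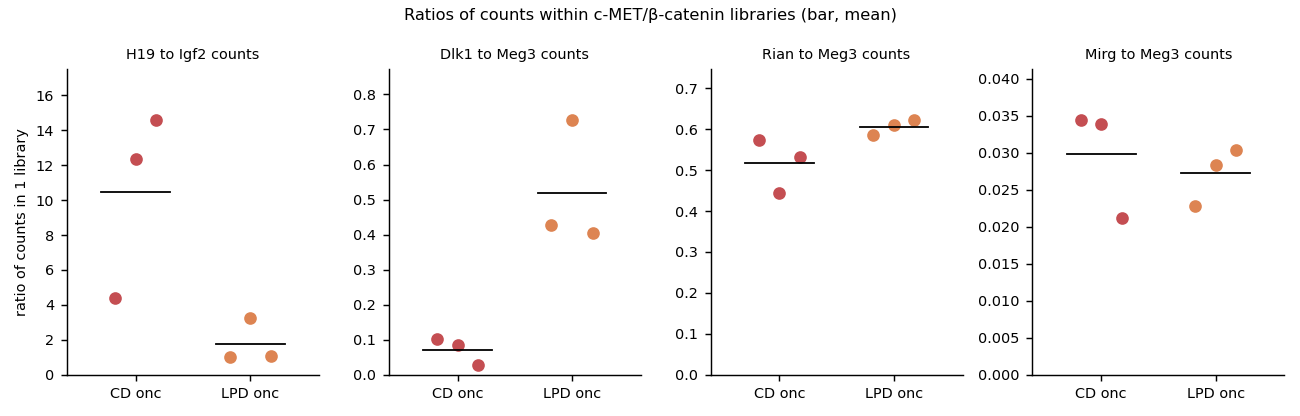
Ratios of raw counts within each c-MET/β-catenin liver (linear axes from 0), 3 points per diet with a bar at the mean, for H19 over Igf2 and for Dlk1, Rian and Mirg over Meg3. Dlk1 to Meg3 is 0.0273 to 0.101 on CD and 0.404 to 0.726 on LPD, whereas Rian to Meg3 is 0.444 to 0.573 and 0.586 to 0.622.

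Peg3, a paternally expressed zinc finger gene, moved against Igf2, Meg3 and Rian. Peg3 (chr7:6703892-6730431, minus strand, far from H19 and Igf2 on the same chromosome) was at 3.16, 3.35 and 2.40 CPM in CD Vec, at 1.44, 0.653 and 1.16 in CD c-MET/β-catenin, at 4.61, 7.22 and 4.41 in LPD Vec and at 4.35, 8.95 and 4.85 in LPD c-MET/β-catenin livers. All CD oncogene livers lay below all CD Vec livers, and all 6 LPD livers lay above all 6 CD livers. Peg3 fell on CD by 1.43 ± 0.37 on the log2 scale (adjusted p = 0.0104), did not change detectably on LPD (0.16 ± 0.34, adjusted p = 0.934), and was 2.46 ± 0.37 higher in LPD than in CD oncogene livers (log2, adjusted p = 0.00128). In Vec livers the diet difference was 0.87 ± 0.35 and missed the threshold (adjusted p = 0.412, unadjusted p = 0.0282). The test of whether the oncogene effect differed between diets gave 1.59 ± 0.50 (log2, adjusted p = 0.0676) by edgeR and passed by DESeq2 (1.59, adjusted p = 0.0233). With a term for the header runs, neither the CD difference (−1.33, adjusted p = 0.284) nor the diet difference in oncogene livers (2.38, adjusted p = 0.0607) passed.

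Plagl1, Cdkn1c and Grb10 did not pass the test in any of the 5 comparisons. Plagl1, a regulator of other imprinted genes, ranged from 0.299 to 1.16 CPM over the 12 livers, and both ends of this range were CD oncogene livers. Cdkn1c was at 1.32 to 2.03 CPM in CD Vec and 2.28 to 3.63 in CD oncogene livers with no overlap, but the log2 difference of 0.68 ± 0.36 missed the threshold (adjusted p = 0.161). With total counts in place of TMM factors, a scaling that moved the median of all genes to 0.28 on the log2 scale, it passed (0.97, adjusted p = 0.0455). Cdkn1c overlaps the antisense model Gm44732 over 625 exonic bases. Grb10 was at 5.84 to 9.76 CPM in CD and 3.15 to 5.23 CPM in LPD oncogene livers, again with no overlap and with a log2 difference of −0.93 ± 0.40 that did not pass (adjusted p = 0.127). Its CD Vec livers spread from 2.55 to 9.61 CPM, and without the highest of them, CD Vec replicate 2, the diet difference in oncogene livers passed (−0.94, adjusted p = 0.0495).

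On CD, 4 of the 7 genes with a test passed between oncogene and Vec livers, 3 higher (Igf2, Meg3 and Rian) and 1 lower (Peg3). Of all 13947 genes tested, 35.4% were called in this comparison, 18.7% higher and 16.7% lower, so a call by itself was common on CD. With total counts in place of TMM factors, 78.8% of the calls on CD were higher, against 52.8% here, and the 4 calls above kept their direction, with Cdkn1c added. On LPD, 2 of the 7 were called, Meg3 and Rian, both higher, against 1.32% of all genes, 1.15% higher and 0.165% lower. Between LPD and CD in oncogene livers 4 of 7 were called, 3 lower (Igf2, Meg3 and Rian) and 1 higher (Peg3), against 20.0% of all genes, 8.66% higher and 11.3% lower. The median log2 difference over all genes was −0.01 on CD, 0.01 on LPD and −0.01 between diets in oncogene livers. A term for the header runs left 2 calls on CD, 2 between diets in oncogene livers and 2 on LPD, Meg3 and Rian each time.

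**Figure D4:**
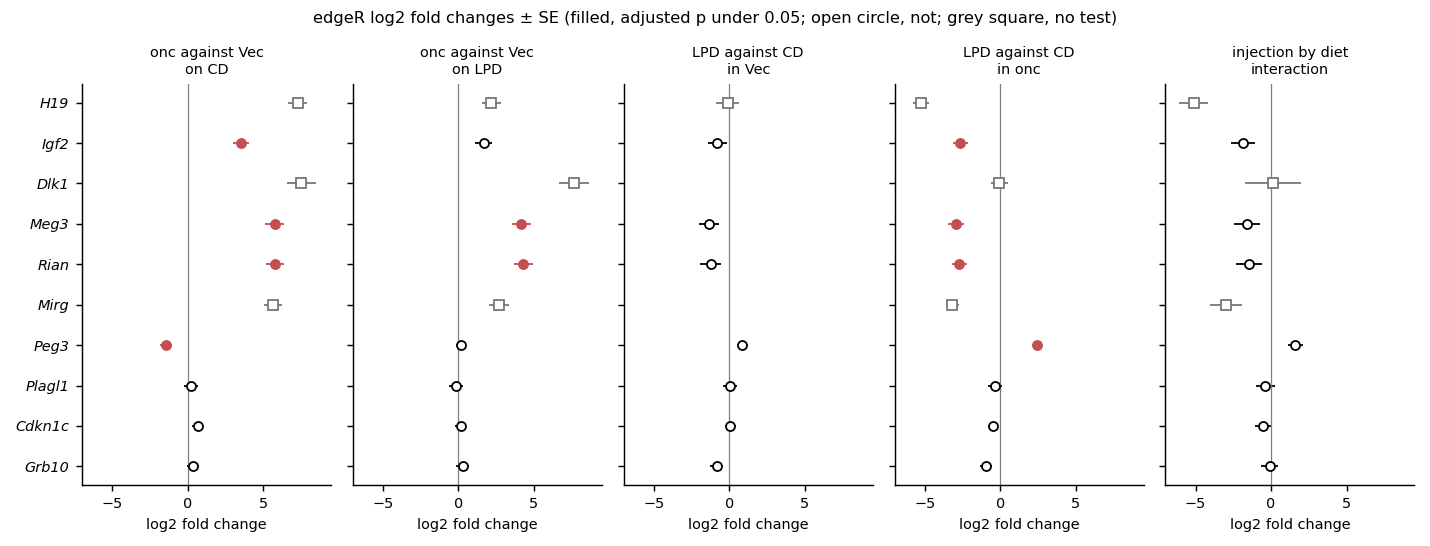
Log2 differences with SE bars for the 10 genes in the 5 comparisons, where filled points passed the test (edgeR adjusted p under 0.05), open circles did not, grey squares have no test, and Dlk1 and Mirg are left out between diets in Vec livers. Meg3 differs by 5.76 on CD, 4.15 on LPD and −2.95 between diets in oncogene livers, and Peg3 by −1.43, 0.16 and 2.46.

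Between the diets in Vec livers none of these genes was called, which does not show that their levels were alike. Of the 7 genes with a test, 0 were called by edgeR, against 0.308% of all genes, with 1 at an unadjusted p under 0.05 (Peg3). DESeq2 also called 0, with 3 at an unadjusted p under 0.05. Every LPD Vec liver lay above every CD Vec liver for Peg3 (values given above) and below every one for Igf2 (log2 −0.79 ± 0.60, adjusted p = 0.728). With 3 livers per group such separation is weak, because an exact permutation test cannot go below p = 0.1. Its share over all genes was not counted. The largest differences among the 7 were in Meg3 (log2 −1.34 ± 0.66, adjusted p = 0.549) and Rian (−1.24 ± 0.71, adjusted p = 0.611), with only 3 counts of Rian in LPD Vec replicate 3. No fold between Vec groups is given for Dlk1 and Mirg, which had 3 counts and 5 counts in all in each Vec group. The test of the difference between the oncogene effects on LPD and CD called 0 of 7 genes by edgeR, against 8.91% of all genes, with 2 at an unadjusted p under 0.05 (Igf2 and Peg3). DESeq2 called 1, Peg3. The differences were −1.61 ± 0.84 for Meg3 (adjusted p = 0.257), −1.47 ± 0.88 for Rian (adjusted p = 0.320) and −1.86 ± 0.79 for Igf2 (adjusted p = 0.161) on the log2 scale. A smaller oncogene effect on LPD is thus not shown for single genes of this group, although 3 of them were lower in LPD than in CD oncogene livers. For Igf2 the difference passed when LPD c-MET/β-catenin replicate 1 was left out (−2.84, adjusted p = 0.0206). H19, chosen for this difference, had −5.13 ± 0.94, and Dlk1 had 0.10 ± 1.86, a value that ran from −3.36 to 3.37 when single Vec libraries were left out.

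Levels between genes were compared as CPM per kilobase of exon, with all annotated exons of a gene joined into 1 length. The order depends on these lengths: as plain CPM, Meg3 (mean 163) stood above H19 (mean 101) in CD oncogene livers. In CD oncogene livers H19 was the highest of the 10 at 41.0 ± 12.2 CPM per kb (SD, n = 3), followed by Meg3 at 8.99 ± 2.47 and Rian at 4.51 ± 0.857, with no overlap of their mean ± SD ranges. Igf2 (1.97 ± 0.882), Dlk1 (1.93 ± 1.04) and Cdkn1c (1.37 ± 0.358) came next and did not differ beyond their spread, and Plagl1 (0.0933 ± 0.0547) and Peg3 (0.0815 ± 0.0301) were at the bottom. In LPD oncogene livers Dlk1 (1.84 ± 1.09), Meg3 (1.17 ± 0.840), H19 (1.07 ± 0.650), Cdkn1c (0.987 ± 0.422) and Rian (0.692 ± 0.477) overlapped within their spread. In Vec livers Cdkn1c had the highest mean on both diets (0.855 ± 0.182 on CD and 0.894 ± 0.232 on LPD), which on CD did not stand beyond the spread of Grb10 (0.633 ± 0.393). Dlk1 and Mirg had the lowest means there, at 3 and 5 counts in all per group, too few to order them.

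Neighbours of these genes on the chromosome are given beside the 35.4% of all genes called on CD, 18.7% higher and 16.7% lower. Within 500 kb of H19, 8 genes besides Igf2 were tested. Of these, 4 were called higher on CD (Dusp8 by 3.00, Tspan32, Lsp1 and Ctsd by 0.37 on the log2 scale) and 0 fell. Tspan32 was kept by the filter only through the oncogene groups. Igf2 also lies in this window and was called higher on CD, as given above, but is not in these counts. Mrpl23, the nearest on the far side from Igf2, was at −0.06 (adjusted p = 0.756). Within 500 kb of Dlk1 the only genes to pass the filter were Meg3, Rian, Mirg and AF357359, so no unimprinted neighbour could be read there. Like Mirg, AF357359 was kept only through the oncogene groups. Of 7 tested genes near Peg3, 2 zinc finger genes fell on CD, Zfp667 (−1.21) and Zfp78 (−0.96), and both were higher in LPD than in CD oncogene livers (1.26 and 1.30). Near Cdkn1c, Grb10 and Plagl1, 4, 3 and 1 genes rose and 3, 0 and 1 fell on CD, of 16, 4 and 8 tested. Among those that rose, Tspan32 near Cdkn1c and Fignl1 near Grb10 were kept by the filter only through the oncogene groups.

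Likeness of pattern was measured by Pearson's r of log2(CPM + 1) over the 12 libraries, which share 4 groups, so that any gene with a like pattern over the groups scores high. The genes most like H19 were Kif5c (0.992), Lysmd2 (0.989), Depdc1b (0.988), Scn8a (0.986) and Eln (0.983). Those most like Igf2 were Tmem71 (0.980), Nrg1 (0.973), Gskip (0.971), 1700003F12Rik and Miox (0.970 each), and those most like Dlk1 were Dner (0.970), Arnt2 (0.966), Car4 (0.963), Sbspon (0.961) and Lef1 (0.960). Among the 10 genes, Meg3 and Rian were each other's nearest of all genes (0.999), H19 stood at 0.944 to Igf2 and 0.705 to Dlk1, and Peg3 at −0.747 to H19 and −0.296 to Dlk1.

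Of 15 further genes listed for the domains of these 10, 6 were tested and 1, Slc22a18, was called on CD (−0.53 ± 0.19, adjusted p = 0.0484), a call that was lost in most alternatives. Of 34 imprinted genes elsewhere, 23 were tested, and on CD 5 rose and 2 fell, with a list median of −0.01 on the log2 scale. Of those 5, Airn and Peg10 were kept by the filter only through the oncogene groups. These 7 calls are a smaller share than the 35.4% of all genes called on CD, and the 5 that rose a share near the 18.7% called higher. Igf2r, the receptor that clears IGF2, rose by 1.21 ± 0.22 (adjusted p = 0.00133), from 35.7 to 57.3 CPM in CD Vec to 102 to 127 CPM in CD oncogene livers. Airn, transcribed antisense to Igf2r and counted among those that rose, had 1, 1 and 6 counts in CD Vec and 176, 133 and 123 counts in CD oncogene livers. No test is given for it. Reads in any exonic bases that it shares with Igf2r could not be told apart without strand, and that overlap was not measured. With the header term Igf2r no longer passed (adjusted p = 0.122). Dcn, the proteoglycan decorin and a stellate cell marker, fell by 1.30 ± 0.19 on CD (adjusted p = 3.26e-04) and was 1.07 higher in LPD than in CD oncogene livers (adjusted p = 0.00260). On LPD and between diets in Vec livers, 0 of these 23 genes were called, against 1.32% and 0.308% of all genes.

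Among genes of the IGF system, Igfbp1, Igf2r and Igf2bp3 rose on CD and Igfbp2, Igfals and Igf1 fell. Of 17 listed receptors, binding proteins and mRNA-binding proteins 16 were tested, of which 5 rose and 3 fell on CD with a list median of −0.24, 0 were called on LPD or between diets in Vec livers, and 3 were higher and 4 lower in LPD than in CD oncogene livers. Over all genes 35.4% were called on CD, 1.32% on LPD, 0.308% between diets in Vec livers and 20.0% between diets in oncogene livers. Igfbp1, a secreted IGF-binding protein, was at 9.17, 9.84 and 51.9 CPM in CD Vec, at 2213, 570.2 and 386 in CD oncogene, at 44.8, 45.7 and 51.3 in LPD Vec and at 71.3, 124 and 61.0 CPM in LPD oncogene livers. Every CD oncogene liver stood above every other liver. Igfbp1 rose on CD by 5.48 ± 0.87 (log2, adjusted p = 7.53e-04) and was lower in LPD than in CD oncogene livers (−3.62 ± 0.80, adjusted p = 0.00980). Igf2bp3, a fetal protein that binds Igf2 mRNA, rose by 2.61 ± 0.41 (adjusted p = 5.40e-04). Igfbp2 fell by 2.98 ± 0.49 on the log2 scale (adjusted p = 9.03e-04) and Igfals, which carries IGF1 in plasma, by 1.74 ± 0.26 (adjusted p = 3.79e-04). With the header term the CD calls of Igfbp2 (−2.80, adjusted p = 0.0930) and Igfals (−1.66, adjusted p = 0.0524) and the diet difference of Igfbp1 (−2.17, adjusted p = 0.142) no longer passed. Igf2bp2, which also binds Igf2 mRNA, was at 4.50 to 7.65 CPM in LPD and 1.10 to 2.11 CPM in CD oncogene livers (1.94 ± 0.30, adjusted p = 0.00147, and 0.0542 with the header term). In Vec livers it was at 5.28 CPM or more on LPD and at 1.31 to 2.39 CPM on CD, also without overlap, and the difference of 1.54 ± 0.30 missed the threshold (adjusted p = 0.0586). Igf1, named after its values were seen, fell by 1.17 on the log2 scale on CD (adjusted p = 0.0029), from 698 to 987 CPM in Vec to 255 to 514 CPM in oncogene livers.

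**Figure D5:**
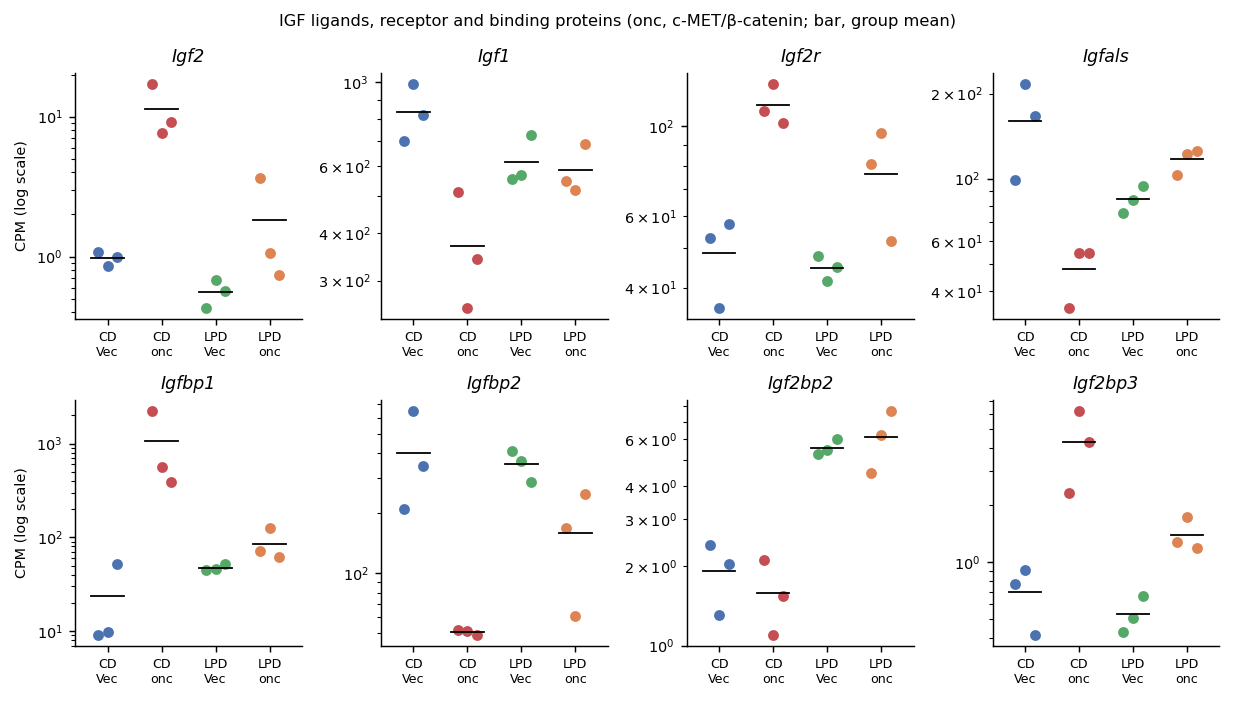
CPM on a log axis in every liver by group (onc, c-MET/β-catenin) for Igf2, Igf1, Igf2r, Igfals, Igfbp1, Igfbp2, Igf2bp2 and Igf2bp3, 1 point per liver with a bar at the group mean. Igfbp1 stands at 386 to 2213 CPM in CD oncogene livers and at 61.0 to 124 CPM in LPD oncogene livers.

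Dlk1 is related to the Notch ligands, and 12 of 14 listed Notch receptors, ligands and targets were tested. On CD 2 were called higher, Jag1 (1.25 ± 0.32, adjusted p = 0.0101) and Jag2, both named after their values were seen, and the list median was 0.50. No test is given for Jag2, which the filter kept only through the CD oncogene livers (26, 14 and 14 counts there and 1 to 8 counts in the other livers). These 2 of 12 are close to the 18.7% of all genes called higher on CD. Jag1 was lower in LPD than in CD oncogene livers (log2 −1.10). On LPD, where Dlk1 was at 4.07 to 16.4 CPM, 0 of 12 were called. With 1.32% of all genes called there, a count of 0 in 12 says little. The targets Hes1 (0.65, adjusted p = 0.178) and Hey1 (1.25, adjusted p = 0.0760) did not pass on CD.

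Of 16 listed genes that maintain imprints and DNA methylation, 13 were tested, and on CD 7 rose and 1 fell, with a list median of 0.66, against 18.7% of all genes called higher and 16.7% lower. The maintenance methyltransferase Dnmt1 rose by 0.85 ± 0.19 (log2, adjusted p = 0.00440), Dnmt3b by 1.45 ± 0.44 (adjusted p = 0.0219), and Uhrf1, which brings DNMT1 to replicating DNA, by 2.69 ± 0.78 (adjusted p = 0.0192). Uhrf1 was at 3.06, 10.6 and 13.3 CPM in CD oncogene livers and at 0.764, 0.171 and 3.18 CPM in CD Vec livers, so the groups overlapped. The Uhrf1 call was lost without CD Vec replicate 1 (2.39, adjusted p = 0.0668) or the third CD oncogene liver (2.29, adjusted p = 0.0549), and that of Dnmt3b without CD Vec replicate 1 (1.30, adjusted p = 0.0734) or the first (1.17, adjusted p = 0.0787) or the third (1.37, adjusted p = 0.0504) CD oncogene liver. With the header term Dnmt1 (adjusted p = 0.0846), Dnmt3b (0.379) and Uhrf1 (0.121) did not pass. Zfp57, which protects imprints in the embryo and is counted among the 7, was kept by the filter only through the oncogene groups, at 0.204 to 0.682 CPM in CD Vec and 1.01 to 2.12 CPM in CD oncogene livers, and gets no test. Zfp445, with the same role, fell by 0.66 on the log2 scale, and neither Ctcf (−0.15, adjusted p = 0.30) nor Trim28 (0.30, adjusted p = 0.067) passed. Of the proliferation markers 6 of 6 were called higher in the same comparison (Ccnb1 and Plk1 kept by the filter only through the oncogene groups), and their part in these changes was not tested. On LPD 0 of 13 were called, and 3 were lower in LPD than in CD oncogene livers (Uhrf1, Hells and Dnmt3a), against 1.32% of all genes called on LPD and 11.3% lower between diets. Each of these 3 calls was lost when single oncogene livers were left out, with an adjusted p of up to 0.108 for Uhrf1, 0.118 for Hells and 0.106 for Dnmt3a. With the header term Hells (adjusted p = 0.108) and Dnmt3a (adjusted p = 0.128) did not pass between diets.

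Afp and Gpc3, fetal liver genes that are silenced after birth with H19, rose on both diets. Afp was at 5.09, 3.24 and 17.6 CPM in CD Vec, at 370.2, 671 and 245 in CD oncogene, at 6.09, 6.04 and 3.39 in LPD Vec and at 115, 56.5 and 20.3 CPM in LPD oncogene livers. It rose by 5.63 ± 0.81 on CD (log2, adjusted p = 4.35e-04) and by 3.62 ± 0.75 on LPD (adjusted p = 0.0419), and Gpc3 rose by 4.94 ± 0.76 (adjusted p = 5.83e-04) and 3.73 ± 0.75 (adjusted p = 0.0373). Every Afp value in CD oncogene livers lay above every LPD oncogene value. Gpc3 was at 49.5, 67.1 and 23.8 CPM in CD and at 11.4, 28.1 and 3.24 CPM in LPD oncogene livers, which overlapped, and the log2 difference of −1.71 ± 0.62 missed the threshold (adjusted p = 0.0768). Both LPD calls were lost when any LPD Vec library was left out, with an adjusted p of up to 0.200 for Afp and 0.170 for Gpc3. With the header term both missed on LPD (adjusted p = 0.162 and 0.121), and Gpc3 missed on CD (3.74, adjusted p = 0.0596). The regulators listed for their silencing, Zbtb20, Zhx1, Zhx2 and Zhx3, passed in no comparison.

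Markers of other cells were read beside these results, and beside the 18.7% of all genes called higher and 16.7% lower on CD and the 1.32% called on LPD. Stellate cell and fibroblast markers, some of which accompany imprinted gene expression in mesenchyme, were higher for 6 and lower for 2 of 11 on CD, 0 were called on LPD, and the list summed to 283 to 738 CPM in CD oncogene livers and 242 to 354 CPM in the other groups. The CD oncogene liver with the lowest Col1a1 (23.2 CPM against 151 and 195) had the highest H19 (134 CPM) and the lowest Dlk1 (4.83 CPM). That liver is also the only CD oncogene liver in its header run, and Col1a1 is 1 gene of the 11, so nothing can be read from this. Cholangiocyte markers summed to 121 to 382 CPM in CD oncogene livers and 36.8 to 57.7 CPM in the other groups. Of 5 tested on CD, Krt19 and Spp1 were higher and 3 were not called, with a list median of 0.33 on the log2 scale. Of single erythroid genes, the globin Hbb-bs rose on CD (log2 1.97 ± 0.41, adjusted p = 0.00324) and was lower in LPD than in CD oncogene livers (−2.17 ± 0.41, adjusted p = 0.00445), and Alas2, the heme enzyme of red cells, passed in neither (−0.81, adjusted p = 0.0818, and 0.10, adjusted p = 0.867). The globin Hba-a1, which has a near-identical copy, differed by 3.31 (adjusted p = 0.0144) and −3.63 (adjusted p = 0.0165). Of markers of tissues that keep H19, Igf2 or Dlk1 after birth, the adrenal enzyme Cyp11b1, the pancreatic hormones Ins1 and Ins2, and the muscle genes Ckm and Myh4 had 0 counts in every library, where 0 allows up to 3 counts. The muscle list summed to at most 0.530 CPM with 0 of 5 tested. Of the adrenal list 3 of 5 were tested, with 1 higher and 1 lower on CD. Of the pancreas list 1 of 7, Cela1, was tested and rose, and the list summed to 73.1 to 106 CPM in CD oncogene livers and 24.9 to 69.0 CPM in the other groups. Macrophage markers were higher for 2 of 7 on CD, neutrophil markers for 2 of 3, 1 of 7 endothelial markers fell, and of the T, NK and B cell list 1 rose and 1 fell of 8. In LPD against CD oncogene livers, 2 stellate and fibroblast markers were higher and 5 lower of 11, with 8.66% of all genes higher and 11.3% lower. Lower were 2 of 5 cholangiocyte, 2 of 3 neutrophil, 3 of 4 erythroid, 2 of 10 hepatocyte and 1 of 7 macrophage markers, with 0 higher in each list. Of 7 endothelial markers 1 was higher, and of the T, NK and B cell list 0 of 8 were called. The adrenal Hsd3b1 and the T cell Cd8a, each called higher on CD, were kept by the filter only through the oncogene groups. The part of cell makeup in the changes of H19, Igf2, Dlk1 and their neighbours was not tested.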

How the data were processed

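Whole-gene counts for 12 mouse livers (4 groups of 3) were deposited by the authors as 1 table of raw counts, not normalized. Per the study's methods and the submitters' processing notes, reads were aligned to mm10 with HISAT2, counted with featureCounts and tested with DESeq, with versions not given in the sources used here. The labels name an rRNA depletion kit and the methods a stranded mRNA kit, which changes how well non-coding RNAs without a poly(A) tail are read. The strand and multiple-mapping settings are not given in the sources used here.

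Entrez identifiers were matched to symbols in RefSeq (GRCm38.p6) for 25275 of 27179 genes, and exon lengths were taken from GENCODE. Counts were tested with edgeR 4.0.16 in R 4.3.3 by the quasi-likelihood test (robust, TMM factors, filterByExpr, 13947 genes, 1 fit to all 4 groups, no covariate). Benjamini-Hochberg adjustment over all genes followed, with calls at an adjusted p under 0.05. Groups of 3 cannot go below p = 0.1 in an exact permutation test, so no such test is given. CPM uses TMM-scaled totals. Steps were tested on simulated counts. One item of a marker list is not reported here.

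Alternatives were scaling by total counts, no low-count filter, DESeq2 1.42.0, a fit to the 2 groups compared, a term for the header runs, a replicate block and leaving out each library. The genes, lists, tests and alternatives were chosen with earlier results of these data known. Named were all 10 genes in every library, and list genes that were called with a mean of at least 1 CPM, at most the 4 largest per list and comparison. Not every such value is described above. Left out were Slc22a3 (log2 1.03 on CD and −1.49 between diets in oncogene livers) and Igfbp6 (−1.73 between diets in oncogene livers). The values of some calls of named genes were also left out, such as Igfbp2 between diets in oncogene livers (1.65). Members of the lists on imprint maintenance and postnatal silencing, neighbours within 500 kb and the 5 most alike genes of H19, Igf2 and Dlk1 were also named.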

Additional observations from a re-analysis of the deposited data

Results flagged for a closer look

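Effects of the oncogenes that differed between the diets are given here with the difference between the effect on LPD and the effect on CD on the log2 scale. H19 differed by −5.13, with no test because it was selected on this difference. Igfbp1 differed by −4.62 (edgeR adjusted p = 0.0258), with oncogene livers at 386 to 2213 CPM on CD and 61.0 to 124 CPM on LPD, and the call was lost when CD c-MET/β-catenin replicate 1, the highest library, was left out (−3.48, adjusted p = 0.0506), as well as without LPD Vec replicate 2 or 3 (−4.65 and −4.56, adjusted p = 0.0612 and 0.0582) or the first or the third LPD oncogene liver (−4.50 and −4.43, adjusted p = 0.0583 and 0.0652). Igfals differed by 2.21 (adjusted p = 0.00574), with oncogene livers below Vec on CD (34.9 to 54.5 against 98.7 to 216 CPM) and above Vec on LPD (103 to 125 against 75.4 to 94.4 CPM). Dcn differed by 1.13 (adjusted p = 0.0235), a call lost without LPD Vec replicate 2 (1.12, adjusted p = 0.0674) or 3 (1.09, adjusted p = 0.0613). Zfp445 differed by 1.07 (adjusted p = 0.0313), a call lost when the first or the second CD oncogene liver, LPD Vec replicate 1 or 2, or the first or the third LPD oncogene liver was left out (0.91 to 1.09, adjusted p = 0.0518 to 0.0818) and with total counts (0.88, adjusted p = 0.0591). With a term for the header runs, none of Igfbp1, Igfals, Dcn and Zfp445 passed.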

How the results depend on the processing

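Of the values for single genes, 1258 alternatives kept direction and side of the threshold or, with no test, stayed within the spread. A call was lost in 125 and gained in 4, 11 values with no test moved, and 26 tested values that had not passed turned sign. Values with no test were classed by spread and not by sign. Some of them changed sign too, such as H19 between diets in Vec livers and Dlk1 between diets in oncogene livers. The number of genes called was 4933 on CD, 184 on LPD, 43 between diets in Vec livers, 2784 between diets in oncogene livers and 1243 for the difference between oncogene effects. A fit to the 2 groups compared gave 3014 on CD, 505 on LPD and 3 in Vec livers, DESeq2 gave 481 on LPD, 340 in Vec livers and 2032 for the difference, and total counts gave 66 in Vec livers. A term for the header runs, which leaves fewer livers to compare within a run, gave 945, 75, 16, 618 and 85 in the same order. Leaving out single libraries gave 4251 to 4859 on CD, 52 to 254 on LPD, 5 to 104 in Vec livers, 1585 to 3660 in oncogene livers and 391 to 1404 for the difference. Changes of over 1.5 times came on LPD without LPD Vec 1, 2 or 3 (52, 54 and 57) or LPD c-MET/β-catenin 2 (96). In Vec livers they came without CD Vec 1, 2 or 3 (103, 8 and 13), CD c-MET/β-catenin 1 or 2 (104 and 65), LPD Vec 2 or 3 (6 and 5) or LPD c-MET/β-catenin 3 (26). In oncogene livers they came without LPD c-MET/β-catenin 1 or 3 (1795 and 1585), and for the difference without LPD Vec 1, 2 or 3 (787, 391 and 542) or LPD c-MET/β-catenin 1 or 3 (645 and 508). Total counts moved the all-gene median to 0.28 (CD) and 0.12 (LPD), and changed the share of calls that were higher (values with TMM in brackets) to 78.8% (52.8%) on CD and 29.0% (50.4%) for the difference, and the median of the difference to −0.16.

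Equal replicate numbers did not pair the livers: over 18 pairs the correlation of deviations from group means ran from −0.18 to 0.21, with 2 over 0.1. A replicate block gave 16 calls in Vec livers, 812 for the difference, 4520 on CD and 151 on LPD, changed no call of the genes with a test among the 10, ended those of Afp and Gpc3 on LPD, of Dnmt3a and Igfbp2 between diets in oncogene livers and of Igfbp1 for the difference, and turned Plagl1 between diets in Vec livers to −0.051.

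The term for header runs turned Plagl1 to −1.15 on CD, −0.011 between diets in Vec livers, 0.94 between diets in oncogene livers and 0.95 for the difference, and Grb10 to 0.25 for the difference. With 1 library left out, Plagl1 ran from −0.31 to 0.57 on CD, −0.39 to 0.084 on LPD, −0.23 to 0.25 in Vec livers, −0.71 to 0.17 in oncogene livers and −0.73 to 0.15 for the difference. On LPD, Peg3 ran from −0.24 to 0.42, Cdkn1c from −0.18 to 0.42 and Grb10 from −0.0087 to 0.42. Between diets in Vec livers, H19 ran from −0.97 to 0.34 and Cdkn1c from −0.094 to 0.26, and Grb10 ran from −0.67 to 0.26 for the difference. The cause was not tested. Dlk1 and Mirg in Vec livers were too few counts for a fold.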
